A study of Mus musculus with 18 samples.

Results

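Cells that keep at least one Ddx41 allele also receive 4-hydroxytamoxifen (4OHT) in this study, and the 4OHT effect common to them was measured here in 12 of the 18 RNA-seq libraries. The members were chosen by their labels alone: all libraries of the WT line and of the Het line, with ethanol or with 4OHT. They entered a single fit with a term for line and a term for treatment, and the treatment term, common to both lines, was tested. The same fit was made on 10 libraries, without those labelled WT_EtOH C and WT_4OHT C, whose treatment state or line went against the label.

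The cells were mouse bone marrow progenitors without lineage-marked cells, immortalized by a retrovirus that carries the leukemia fusion gene MLL-AF9. They were grown with interleukin 3, stem cell factor and interleukin 6. Every group carried the CreERT recombinase, expressed from the Rosa locus, and was exposed for 48 h to 1 µM 4OHT or to the ethanol vehicle. The WT line is Ddx41 +/+ in ethanol (WT_EtOH) and in 4OHT (WT_4OHT). The Het line is +/flox in ethanol (Het_EtOH) and labelled +/- in 4OHT (Het_4OHT). The FF line, used only for comparison, is flox/flox in ethanol (FF_EtOH) and labelled -/- in 4OHT (FF_4OHT). Each group has 3 libraries, lettered A to C. The labels do not say how many lines stand behind a genotype or whether the letters are separate cultures, so the p-values cover no more than library-to-library spread, which can be technical. 4OHT and active Cre come together in every treated group and cannot be told apart. In Het the labelled loss of a Ddx41 allele comes with both. Where a value rests on Het, that loss cannot be told apart from them either.

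4OHT is an active metabolite of tamoxifen. It binds the modified estrogen receptor domain fused to Cre, which lets the recombinase enter the nucleus, and it also binds the cell's own estrogen receptors. Tamoxifen and its relatives are known to inhibit late enzymes of cholesterol synthesis, and active Cre can cut genomic sites that resemble its target. Cells that have no floxed allele but do carry CreERT are therefore the usual control for effects of the drug and the enzyme.

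Libraries of the WT and Het groups held 26557184 to 49277884 counts, and the CPM values below are counts relative to the library total after TMM correction. None of the 66 pairs among the 12 libraries agreed within sampling noise (smallest chi-square per gene 9.21). The progenitor markers Kit (112 to 122 CPM in WT, 56.9 to 80.7 CPM in Het), Myb, Meis1, Hoxa9 and Ptprc were present in the 10 libraries. Cd34, another progenitor marker, was low in both lines (1.83 to 4.93 CPM in WT, 0.129 to 1.17 CPM in Het). The granule enzyme gene Mpo set the lines apart, at 3410 to 3790 CPM in WT and 64.7 to 136 CPM in Het. The lymphoid marker list summed to 4.33 to 19.4 CPM, with 8 of 20 genes at 0 in all 10 libraries. Of 14 erythroid markers 7 were at 0 as well, yet that list summed to 344 to 1010 CPM. The mast cell and basophil list summed to 801 to 2830 CPM, the stromal list to 425 to 814 CPM and the megakaryocyte list to 179 to 360 CPM.

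Both of the WT libraries lettered C stood apart. The Y-linked translation factor gene Eif2s3y was not counted once (0 counts) in WT_4OHT C, against 66.4 to 101 CPM in the remaining WT libraries, so that library goes against its line label by a gene that does not depend on treatment. The library labelled WT_EtOH C has Eif2s3y at 66.4 CPM, but this gene does not set WT apart from Het (70.9 to 87.8 CPM). Its Mpo level was 2441 CPM, below WT A and B (3410 to 3790 CPM) and far above Het (64.7 to 136 CPM). By Mpo this library lies with WT rather than Het. It was doubted because of genes that differ with treatment, Tgm2 among them. Values without it therefore describe the other libraries and are not an independent test of the treatment. Neither library was relabelled.

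Ddx41, the floxed gene, encodes a DEAD-box RNA helicase. WT ethanol libraries A, B and C were at 80.1, 81.8 and 89.6 CPM, and the 4OHT libraries at 75.5, 88.5 and 93.0 CPM. The Het libraries went from 71.3, 68.0 and 79.1 CPM to 58.4, 43.0 and 41.3 CPM. The Het groups did not overlap and the WT groups did. The shared term was -0.37 ± 0.14 SE on the log2 scale (10 libraries, edgeR adjusted p = 0.866), with 0.03 in WT and -0.63 in Het. The line by treatment difference, Het minus WT, was -0.66 ± 0.22 SE (edgeR adjusted p = 1 over all genes).

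Over all 12 libraries under their labels, 0 of 12734 tested genes passed an adjusted p of 0.05 (0% called). The smallest adjusted p was 0.938, 235 genes had an unadjusted edgeR p under 0.05, and DESeq2 and limma voom called 0 genes too. Over the 10 libraries, 10 of 12883 tested genes fell and none rose, which is 0.0776% of the genes tested. With each line's response tested on its own over these libraries, 0 of 12883 genes passed in WT (smallest edgeR adjusted p 0.0615). In Het 5 passed, all lower: Thbs1, Tgm2, Myl10, Nlrp3 and Mreg. The shared calls therefore do not show a fall in each line taken alone. The 10 called genes are Thbs1, Tgm2 and Tgfb2, which act in the extracellular matrix and in TGF-beta signalling, Nlrp3, Peli2 and Gbp11, which belong to innate immune families, Myl10, Mreg, Tex2 and Bpifc. At all 10 the library labelled WT_EtOH C lay below every other ethanol library of WT and Het. The library labelled WT_4OHT C lay above every other 4OHT library of WT and Het. The 10 genes passed only with WT_EtOH C and WT_4OHT C left out, so such positions are partly built into their choice. Over the 6023 genes without overlap in WT A and B, WT_EtOH C lay nearer the treated libraries at 82.5%. WT_4OHT C lay nearer the ethanol libraries at 28.5% of them. As WT_4OHT C goes against its line label, line and treatment state cannot be told apart in its positions. In the text that follows, fell and rose refer to the 10 libraries.

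**Figure D1:**
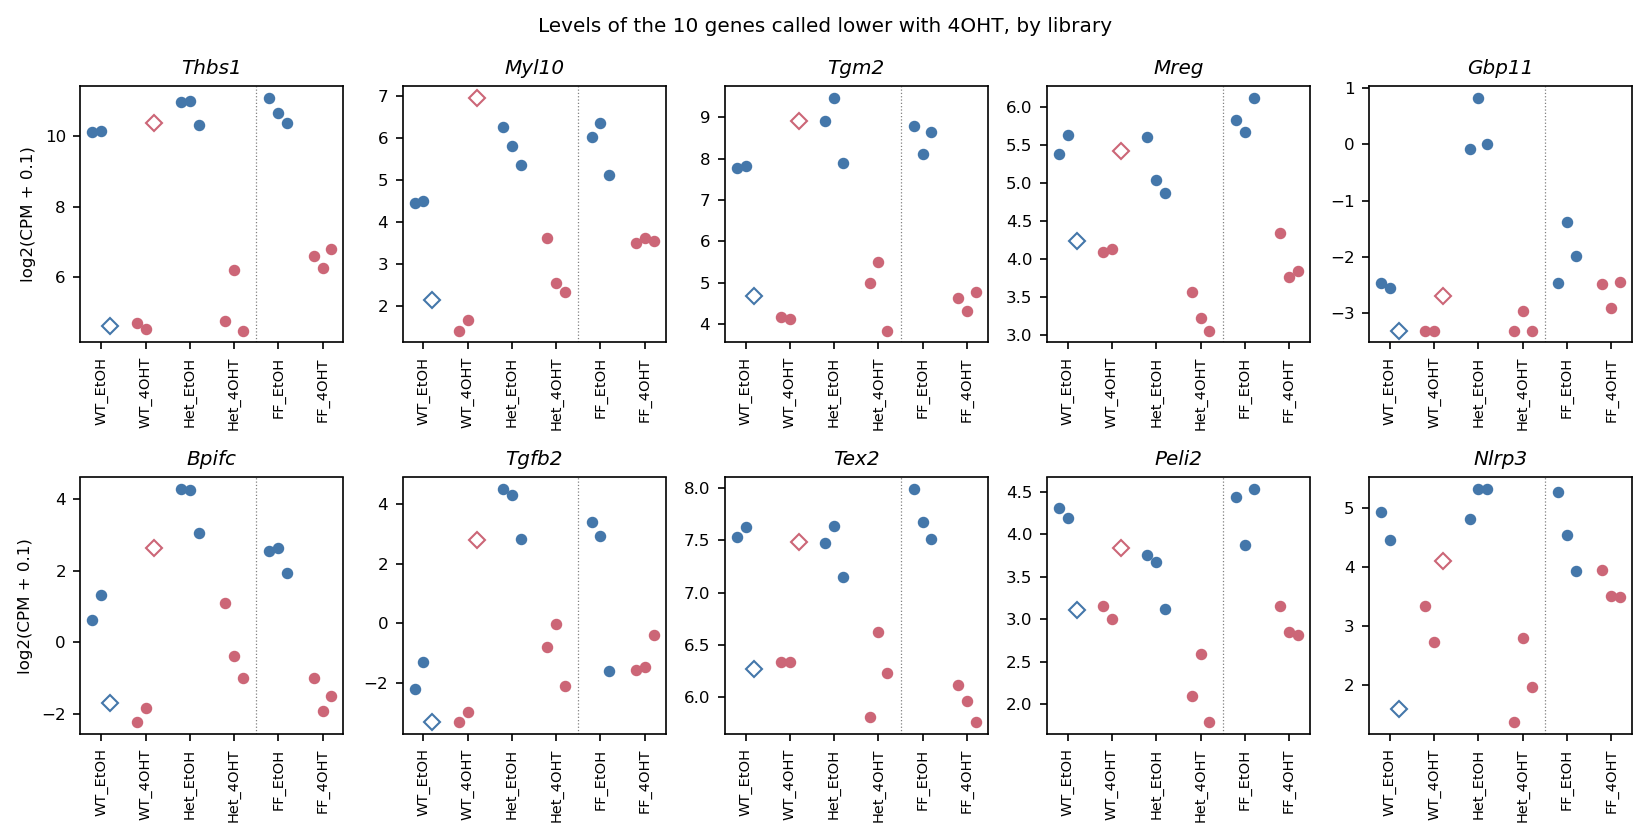
Levels of the 10 genes by library as log2(CPM + 0.1), with ethanol libraries in blue and 4OHT libraries in red. Open diamonds are WT_EtOH C and WT_4OHT C as labelled, and the dotted line sets off the FF groups. In each panel the open blue diamond lies among or near the red points and the open red diamond lies above the other 4OHT libraries of WT and Het.

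Thbs1 had the smallest adjusted p. The gene lies on chromosome 2, 118111876 to 118127133, plus strand (GRCm38, GENCODE annotation, as for the genes below), and encodes thrombospondin 1, a secreted glycoprotein of the matrix that can bind and activate latent TGF-beta. WT ethanol libraries A and B were at 1120 and 1140 CPM, and WT 4OHT libraries A and B at 25.9 and 23.2 CPM. Het ethanol libraries were at 2015, 2070 and 1273 CPM, and Het 4OHT libraries at 27.1, 73.4 and 22.3 CPM. All 5 treated libraries lay far below all 5 ethanol libraries. The shared change was -5.48 ± 0.36 SE on the log2 scale, 44.7-fold lower (edgeR adjusted p = 0.000259). The library labelled WT_EtOH C was at 24.6 CPM, within the range of treated libraries, and the library labelled WT_4OHT C was at 1347 CPM, within that of ethanol libraries. Over all 12 libraries the log2 value was -3.07 ± 1.52 SE and did not pass (edgeR adjusted p = 0.938).

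Tgm2 (chromosome 2, 158116402 to 158146436, minus strand) encodes transglutaminase 2, an enzyme that cross-links proteins and that retinoic acid induces in myeloid cells. Its WT libraries A and B were at 219.7 and 227.4 CPM with ethanol and at 18.01 and 17.28 CPM with 4OHT. Its Het libraries went from 478.5, 708.6 and 236.6 CPM to 31.8, 45.1 and 14.2 CPM. The groups did not overlap in either line, and WT_EtOH C (25.4 CPM) and WT_4OHT C (479.9 CPM) again lay on the other side. The shared change was -3.85 ± 0.36 SE (log2), 14.4-fold lower (edgeR adjusted p = 0.00294), and -1.92 ± 1.19 SE over 12 libraries (adjusted p = 0.938). As Tgm2 was among the genes by which the library labelled WT_EtOH C was doubted, its call over 10 libraries has no weight of its own. The other called genes passed only without WT_EtOH C and WT_4OHT C, so their calls are no independent test of the treatment either.

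Tgfb2 (chromosome 1, 186622792 to 186705989, minus strand) encodes the ligand TGF-beta 2. It was nearly silent in WT, with 12 counts over both ethanol libraries against 1 count over both 4OHT libraries (ratio 14.1, 95% counting interval 2.09 to 604). Het ethanol libraries were at 22.7, 19.7 and 7.08 CPM, and Het 4OHT libraries at 0.482, 0.888 and 0.133 CPM. The Het groups lay far apart, and nearly all of the counts behind the shared change of -4.95 ± 0.59 SE (log2, edgeR adjusted p = 0.0116) came from Het. The library labelled WT_4OHT C, at 6.84 CPM, lay above every other WT library. In limma voom the adjusted p was 0.064, and with all groups of the series in the fit it was 0.904.

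Bpifc (chromosome 10, 85959340 to 86011895, minus strand) belongs to a family of secreted lipid-binding proteins related to the bactericidal protein BPI. WT ethanol libraries A and B were at 1.43 and 2.38 CPM and WT 4OHT libraries at 0.112 and 0.181 CPM. In Het the levels were 19.4, 19.0 and 8.29 CPM in ethanol and 2.02, 0.666 and 0.398 CPM in 4OHT. The ethanol level was higher in Het than in WT, while the groups of each line did not overlap. The shared change was -3.87 ± 0.46 SE (log2), 14.6-fold lower (edgeR adjusted p = 0.0116).

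The RefSeq promoter table of the GRCm38.p6 assembly, to which mm10 corresponds, held 7 of the 10 genes. Thbs1, Tgm2 and Gbp11 were not matched. The 250 bases before the start of Tgfb2 (chr1:186705990-186706239, minus strand) and Bpifc (chr10:86011861-86012110, minus strand) are shown because these genes have the largest fold changes among the 7. Capitals mark a match to a searched motif.
Tgfb2: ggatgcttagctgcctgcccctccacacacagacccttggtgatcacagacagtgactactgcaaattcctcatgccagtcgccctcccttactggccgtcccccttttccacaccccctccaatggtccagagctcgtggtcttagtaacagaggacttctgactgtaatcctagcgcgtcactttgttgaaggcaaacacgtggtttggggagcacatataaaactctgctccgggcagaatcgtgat
Bpifc: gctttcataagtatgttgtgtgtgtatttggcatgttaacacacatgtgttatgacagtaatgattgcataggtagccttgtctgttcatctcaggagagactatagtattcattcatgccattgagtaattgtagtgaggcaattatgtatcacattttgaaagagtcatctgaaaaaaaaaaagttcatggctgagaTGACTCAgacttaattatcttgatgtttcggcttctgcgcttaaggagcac

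Both strands of these windows were searched for 4 motifs. The AP-1 site TGACTCA, bound by Fos and Jun proteins, was found in 1 of the 7 genes, Bpifc, and in 4.46% of the 32851 promoters of the table. The estrogen response element GGTCANNNTGACC was in 0 of the 7 genes and 0.0639% of all promoters. The retinoid element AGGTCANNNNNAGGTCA was in 0 of 7 and 0.00913%, and the sterol regulatory element of the LDL receptor gene was in 0 of 7 and 0.0731%. These matches describe letters in the windows and say nothing of binding.

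Nlrp3 (chromosome 11, 59541568 to 59566956, plus strand) encodes the sensor of the inflammasome, the complex that activates caspase 1 and interleukin 1 beta. WT libraries A and B were at 30.2 and 21.8 CPM with ethanol and at 10.01 and 6.55 CPM with 4OHT. Het libraries went from 28.0, 39.7 and 39.8 CPM to 2.47, 6.82 and 3.78 CPM. The groups did not overlap, and the log2 value was -3.04 ± 0.37 SE in Het and -1.64 ± 0.43 SE in WT, a difference that did not pass over all genes (edgeR adjusted p = 1, unadjusted 0.0318). The shared change was -2.48 ± 0.35 SE (edgeR adjusted p = 0.0383). It did not pass with an additive replicate block (adjusted p = 0.109) or with scaling by library totals (0.052).

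Peli2 (chromosome 14, 48120823 to 48281575, plus strand) encodes Pellino 2, a ubiquitin ligase in Toll-like and interleukin 1 receptor signalling. It went from 19.7 and 18.3 CPM to 8.82 and 7.94 CPM in WT A and B. In Het it went from 13.4, 12.6 and 8.59 CPM to 4.18, 5.91 and 3.35 CPM. The treated libraries of each line lay below its ethanol libraries, although WT_4OHT A was above Het_EtOH C. The shared change was -1.29 ± 0.18 SE (log2), 2.45-fold lower (edgeR adjusted p = 0.0369, and 0.052 with scaling by library totals).

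Gbp11 (chromosome 5, 105323042 to 105346472, minus strand) is a guanylate-binding protein gene, annotated as a polymorphic pseudogene, of a family of close copies induced by interferon, so reads may be split between copies. Its call rests on Het, where 127 counts over 3 ethanol libraries faced 1 count over 3 treated libraries (ratio 109, 95% counting interval 19.1 to 4320). WT A and B held 4 counts in ethanol and 0 in 4OHT, too few to bound a fold in WT. The fitted shared value of -6.18 ± 0.65 SE (log2, edgeR adjusted p = 0.00448) is no bound, because it depends on how 0 counts are treated. Gbp11 lies below the 5 CPM set for named genes and was named after its values were seen.

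Myl10 (chromosome 5, 136693146 to 136701094, plus strand) encodes a regulatory light chain of myosin. WT libraries A and B went from 21.6 and 22.3 CPM to 2.54 and 3.05 CPM, and Het libraries from 76.8, 56.0 and 40.4 CPM to 12.2, 5.74 and 4.91 CPM. The fold was nearly the same in both lines, -2.96 ± 0.45 SE in WT and -2.95 ± 0.35 SE in Het (log2), and the shared value was -2.95 ± 0.26 SE (edgeR adjusted p = 0.0025). The library labelled WT_4OHT C reached 124.0 CPM, above all other libraries of WT and Het. Over 12 libraries the value was -0.74 ± 1.25 SE (adjusted p = 0.94).

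Mreg (chromosome 1, 72159442 to 72212307, minus strand) encodes melanoregulin, which acts in the transport and maturation of lysosome-related organelles. It went from 41.5 and 49.3 CPM to 16.9 and 17.4 CPM in WT A and B, and from 48.3, 32.8 and 29.0 CPM to 11.7, 9.24 and 8.19 CPM in Het. All 5 treated libraries lay below all 5 ethanol libraries, with a shared change of -1.72 ± 0.17 SE (log2), 3.30-fold lower (edgeR adjusted p = 0.00448). The library labelled WT_EtOH C was at 18.8 CPM and the library labelled WT_4OHT C at 42.7 CPM.

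Tex2 (chromosome 11, 106502147 to 106613423, minus strand) encodes a lipid-binding protein of endoplasmic reticulum contact sites. In WT A and B it went from 184.5 and 198.0 CPM to 80.8 and 81.0 CPM. In Het it went from 177.3, 198.9 and 141.7 CPM to 56.0, 98.3 and 75.2 CPM. No treated library reached the lowest ethanol library, and the lines gave log2 changes of -1.23 ± 0.26 SE (WT) and -1.19 ± 0.21 SE (Het). The shared value was -1.21 ± 0.15 SE, 2.31-fold lower (edgeR adjusted p = 0.0174).

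In bulk RNA, fewer cells of a type that expresses a gene and less RNA per cell cannot be told apart. The calls of Thbs1, Myl10 and Mreg were also made when each of the 10 libraries was left out in turn, always without WT_EtOH C and WT_4OHT C. The number of calls ranged from 5, without Het_EtOH A or without Het_EtOH B, to 15 without Het_4OHT A, and was 6 without WT_4OHT B. DESeq2 called 55 genes, 18 higher and 37 lower, which include all 10.

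**Figure D2:**
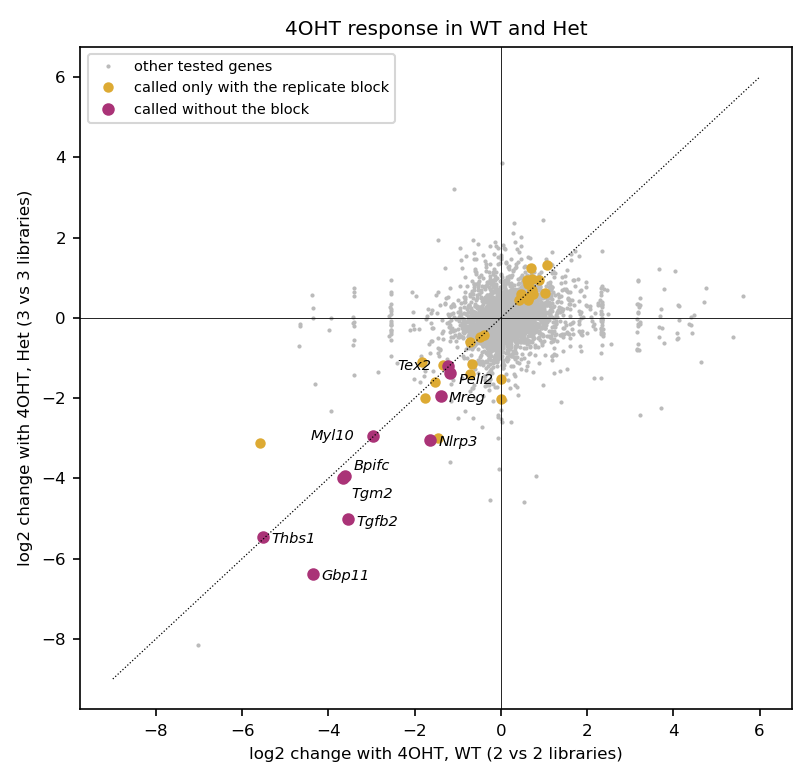
Log2 change with 4OHT in WT (x axis, libraries A and B) against Het (y axis, libraries A to C) for each tested gene, with the dotted line marking equal change. The 10 called genes (purple) lie at the lower left, with Thbs1 and Myl10 on the dotted line and Gbp11 farthest down, and the genes called only with the replicate block (yellow) lie at both ends. The WT value of Gbp11 rests on 4 counts against 0.

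Libraries of 1 letter deviated together from their group means in Het (correlations 0.51, 0.76 and 0.45 for A, B and C). In WT over 12 libraries the values were 0.52, -0.07 and 0.30, so those lettered B did not. The labels do not say that letters are pairs, and values for libraries of different letters are not given here. With the letter as a block within each line, 36 of 12883 genes passed (0.279%), of which 13 rose (0.101%) and 23 fell (0.179%), and the 10 genes above were all among them. Over 12 libraries the same block called 0 genes (1029 at an unadjusted edgeR p under 0.05). The number of calls rested on single pairs: it was 125 without the Het A pair, 9 without the Het B pair, and 10 to 19 without one of the other pairs. The 26 genes added by the block were named after their values were seen. WT A and B showed no overlap at 23 of the 26, against 46.8% of all genes tested. The block used these WT libraries to pick the 26 genes, so that separation is partly built into their choice. At these 23, WT_EtOH C lay nearer the treated libraries at 12 and WT_4OHT C nearer the ethanol libraries at 14. Over the 6023 genes without overlap in WT A and B, the shares were 82.5% for WT_EtOH C and 28.5% for WT_4OHT C. Here too, line and treatment state cannot be told apart in the positions of WT_4OHT C.

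The 13 genes that rose included 3 chemokine genes. Ccl4 and Ccl3, chemokines that attract monocytes and T cells, rose by 1.26 ± 0.10 SE and 0.90 ± 0.10 SE on the log2 scale (edgeR adjusted p = 0.00283 and 0.0142 with the block). Ccl4 was at 2.94 and 2.31 CPM in WT ethanol A and B and at 6.28 and 4.76 CPM in 4OHT. In Het it was at 7.95, 6.16 and 20.2 CPM in ethanol and at 23.7, 15.6 and 46.3 CPM in 4OHT. Each treated library lay above its ethanol partner of the same letter, while the Het groups overlapped. The block by letter picked these 13 genes, so agreement within letters adds no support.

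Lyz2, which encodes lysozyme, went from 224.3 and 217.9 CPM to 356.5 and 378.2 CPM in WT A and B. In Het it went from 298.7, 441.9 and 208.0 CPM to 501.4, 692.1 and 265.8 CPM. It rose in 5 of 5 pairs of the same letter, which adds no support for the same reason. The change was 0.64 ± 0.08 SE (log2, edgeR adjusted p = 0.0252 with the block), whereas without the block Lyz2 did not pass (adjusted p = 0.866). The chemokine Ccl6 (0.74), the neutrophil collagenase Mmp8 (0.83), the lysosomal protease Ctss (0.53), the macrophage protein Wfdc17 (0.81) and the matrix protein Tgfbi (0.69) rose likewise. So did the myeloid receptor Lilrb4 (0.51), the adaptor Lat2 (0.57), the secreted proteins Olfm1 (0.91) and Fstl1 (1.20) and the lysosomal ATPase Atp13a2 (0.43). Fstl1 had 3 counts against 6 in WT, so its value came from Het.

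The 13 genes added among those that fell span a wider range. Ambp, the precursor of a plasma protease inhibitor, had 87 counts in WT ethanol A and B against 2 in 4OHT (ratio 51.2, 95% counting interval 13.8 to 429). In Het it had 23 against 2 (ratio 9.84, interval 2.43 to 86.1). Fgd4, an exchange factor for the GTPase Cdc42, went from 188.5 and 189.8 CPM to 81.0 and 66.8 CPM in WT and from 134.1, 126.0 and 88.2 CPM to 33.5, 66.8 and 55.9 CPM in Het. It fell by 1.26 on the log2 scale with the block (edgeR adjusted p = 0.0486, and 0.058 without it).

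Scd1, the desaturase that makes monounsaturated fatty acids, went from 41.8 and 52.9 CPM to 25.0 and 32.6 CPM in WT and from 208.4, 191.1 and 247.8 CPM to 122.2, 127.1 and 184.6 CPM in Het (-0.65 ± 0.07 SE with the block, log2, edgeR adjusted p = 0.0162). Its groups did not overlap in either line. Gbp4 (-2.69), Dennd2a (-1.93), Prrg1 (-1.60), N4bp3 (-1.38), Htra3 (-1.28), the Notch coactivator Maml3, Svip (-0.48) and Rmnd5b (-0.42) fell as well. Aldh1a3, an enzyme that makes retinoic acid (608 counts against 123 in Het, ratio 4.23), and Adm, the precursor of the peptide adrenomedullin (-1.45), had 0 counts in WT A and B, so their calls rest on Het alone. Htra3 had 7 counts against 5 in WT.

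Samd5 had 154 counts over the 5 ethanol libraries and 0 over the 5 treated ones, at least 49.6-fold lower with a floor of 3 counts over the group. It missed the threshold in the fit (edgeR adjusted p = 0.0621). Tgfbr3, the coreceptor betaglycan that presents TGF-beta 2 to its receptors, missed it as well (-1.62 ± 0.26 SE, log2, edgeR adjusted p = 0.0633). Tgfbr3 was at 33.4 and 39.8 CPM in WT ethanol A and B and 6.95 and 6.70 CPM in 4OHT, and in Het at 85.7, 101.9 and 76.7 CPM in ethanol and 30.8, 53.8 and 37.6 CPM in 4OHT. Both were named after their values were seen.

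Whether WT and Het respond differently was tested with the line by treatment term. None of 12883 genes passed over the 10 libraries (0% called), with 77 at an unadjusted edgeR p under 0.05, and none of 12734 passed over the 12 libraries, with 180. DESeq2 called Csf1 over 10 libraries, and over 12 it called Eya1 and Taf9b. limma voom called 0 in both. The DESeq2 differences of Eya1 and Taf9b were -23.65 and -21.14 (log2), too large to be read as folds. Over the 10 libraries the edgeR log2 change of Eya1 was 0 in WT and -0.087 in Het. Csf1, Eya1 and Taf9b were named after their values were seen.

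Csf1, the growth factor of macrophages, was at 1.91 and 2.97 CPM with ethanol and at 3.21 and 4.06 CPM with 4OHT in WT A and B. In Het it went from 49.1, 44.7 and 36.2 CPM to 16.8, 18.8 and 17.6 CPM. The groups did not overlap in either line, and the log2 value was 0.59 ± 0.25 SE in WT and -1.30 ± 0.19 SE in Het. The difference was -1.89 ± 0.31 SE, with an adjusted p of 1 in edgeR and 0.000119 in DESeq2. For the called genes other than Gbp11, which has 4 counts in WT, the difference of Het minus WT ranged from -1.47 for Tgfb2 to 0.06 for Thbs1, with standard errors of 0.64 for Thbs1, 0.45 for Myl10, 0.32 for Mreg and 3.47 for Tgfb2. A missed threshold with such errors does not show that the lines act alike.

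Across all genes, 158 lay lower in 4OHT without overlap in both lines (1.23% of genes tested), 141 lay higher in both (1.09%), and 45 lay lower in one line and higher in the other (0.349%). With all 6 FF libraries added, 75 genes lay lower without overlap in all 3 lines (0.582%) and 49 lay higher in all 3 (0.38%). Another 26 lay higher in WT and Het but lower in FF (0.202%), and 4 the reverse (0.031%). The correlation of the log2 changes of WT and Het over 12860 genes was 0.25. These libraries share no sample, but genes are not independent replicates.

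The FF line shares no library with WT and Het, and its own response is given beside theirs. The genes and the 10 libraries were chosen with FF results known, so the FF values are a description. All 10 genes called lower by the shared term of WT and Het had a negative log2 change in FF. With FF_EtOH C left out too, a library that lies with another line, 9 of the 10 were called lower in FF against 7.93% of 13015 genes. With all 18 libraries, 5 were called lower against 8.29% of 12859 genes. Thbs1 was at 2197, 1633 and 1326 CPM in the FF ethanol libraries and at 97.9, 77.1 and 112 CPM with 4OHT. Tgm2 went from 440.4, 275.4 and 401.2 CPM to 24.6, 20.0 and 27.1 CPM. The FF groups of Thbs1 and Tgm2 did not overlap. Over all 6 FF libraries 7 of the 10 showed no overlap, and 21.5% of all genes lay lower without overlap. Tgfb2 and Nlrp3 overlapped there only through FF_EtOH C.

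The size of the fall was not called different between FF and the other lines for any of the 10 genes (edgeR, 15 libraries). Among them only Gbp11, Tex2, Nlrp3 and Thbs1 had an unadjusted edgeR p under 0.05 (0.0128, 0.0252, 0.0356 and 0.0364). Their FF minus shared values were 3.79 ± 1.30, -0.67 ± 0.26, 1.06 ± 0.45 and 1.17 ± 0.50 SE (log2). A missed threshold does not show that the falls are equal. The log2 values in WT, Het and FF were -5.52, -5.46 and -4.32 for Thbs1. They were -3.65, -3.98 and -3.90 for Tgm2, and -1.40, -1.94 and -1.76 for Mreg. Nlrp3 was at -1.28 in FF and Tex2 at -1.88. Gbp11 had 14 counts in FF ethanol and 5 in FF 4OHT (ratio 2.78, 95% counting interval 0.946 to 9.86).

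**Figure D3:**
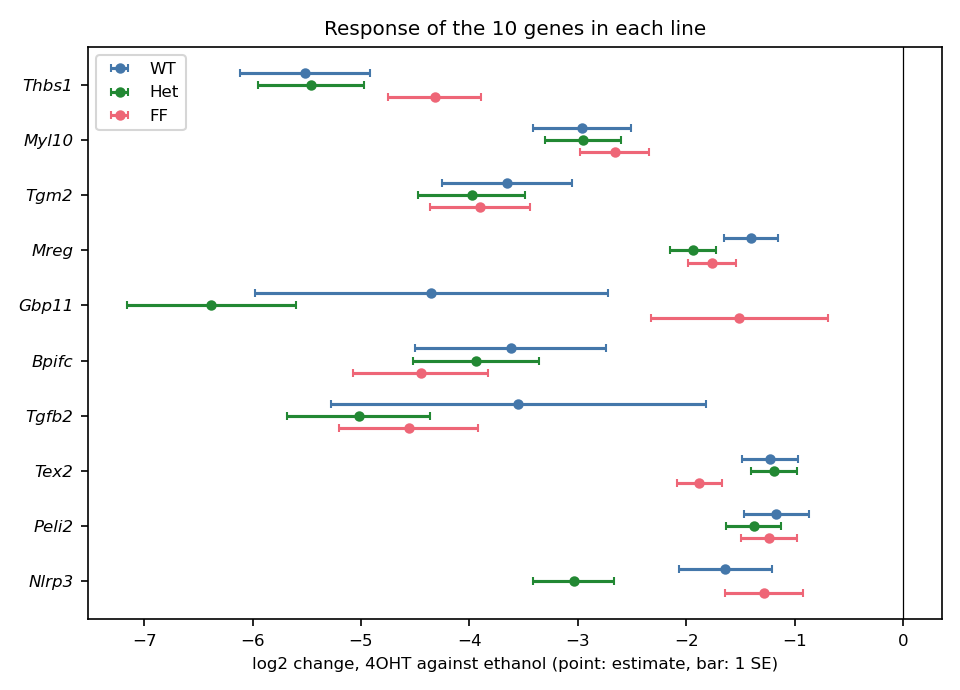
Log2 change with 4OHT of the 10 genes in WT (libraries A and B), Het (A to C) and FF (without FF_EtOH C), each point with a bar of 1 standard error on either side. All points lie below 0, and the widest bars belong to Gbp11 and Tgfb2, whose WT values rest on 4 and 12 ethanol counts.

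For the series as a whole the FF response differed from the shared response at 633 of 12859 genes (4.92%), 152 more positive (1.18%) and 481 more negative (3.74%) in FF. Without the 3 doubted libraries it differed at 497 of 13015 (3.82%), 114 more positive (0.876%) and 383 more negative (2.94%). Of the 36 genes called with the block, Scd1 alone differed from FF over 15 libraries. Over 18 libraries Lyz2, Ccl6 and Ctss differed as well, with FF responses above the shared ones by 1.84, 1.63 and 1.59 on the log2 scale (edgeR adjusted p = 0.0102, 0.0458 and 0.0419). Scd1 fell by 2.33 in FF (log2), and over 15 libraries the FF response minus the shared one was -1.68 ± 0.29 SE (edgeR adjusted p = 0.00908). All 13 genes that rose with the block had a positive value in FF, where 7 were called higher over 15 libraries (5.18% of genes tested) and 9 over 18 (5.16%). Their median was 0.74 in WT and Het and 1.68 in FF. Of the 23 that fell, 21 had a negative value in FF and 16 were called lower over 15 libraries (7.93% of genes tested) and 11 over 18 (8.29%).

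Gene lists that fit a drug, an enzyme that cuts DNA and a myeloid line were described by their counts and medians, beside a median of 0 over all 12883 genes, of which 6321 lay above 0 and 6562 below. Among 30 matrix and TGF-beta target genes 15 lay above 0 and 15 below, and Thbs1 and Tgm2 fell, while Tgfbi rose with the block. The list's median was 0.06, and 0.11 over the 12 libraries. Of 15 retinoid response genes, Tgm2 fell, and Aldh1a3 fell with the block, while 8 lay above 0 and 7 below. None of 17 genes of the estrogen receptor and its targets passed (median -0.06, 7 above 0 and 10 below), nor any of 13 xenobiotic and AhR genes (median 0.08).

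Sterol and lipid genes lay below 0 more often than above, without single calls. Other lists leaned the same way: 28 of 37 DNA repair and checkpoint genes, 25 of 38 G2/M genes and 15 of 22 ER chaperone genes lay below 0. Of 28 cholesterol synthesis genes 23 had a negative shared value (median -0.14, with -0.19 in WT, -0.13 in Het and -0.42 in FF), and 0 passed. Idi1, an isomerase of the pathway, was at -0.47 ± 0.16 SE (log2, edgeR adjusted p = 0.866). Of 22 fatty acid synthesis genes 17 lay below 0 (median -0.16, and -0.08 over the 12 libraries), and Scd1 alone passed, with the block. Me1, which supplies reducing power for lipid synthesis, was at -0.40 ± 0.11 SE and Acsl3, which activates fatty acids, at -0.34 ± 0.09 SE (both edgeR adjusted p = 0.767).

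Lysosome and monocyte genes lay mostly above 0, and granule genes did not. Of 35 lysosome genes 31 had a positive shared value (median 0.12, with 0.16 in WT, 0.09 in Het and 0.45 in FF), and Ctss passed with the block. The proteases Ctsd (0.32 ± 0.12 SE) and Ctsl (0.26 ± 0.07 SE) did not pass (edgeR adjusted p = 0.866). Of 27 monocyte and macrophage genes 22 lay above 0 (median 0.37, and 1.18 in FF), and Lyz2 and Ctss passed with the block. Over the 12 libraries the median of this list was 0.18. Their summed level was 1720 CPM in both WT ethanol libraries and 1980 to 2080 CPM in 4OHT, while in Het it was 2000 to 3810 CPM in ethanol and 1790 to 3800 CPM in 4OHT, so the Het groups overlapped. No gene of this list was at 0 in all 10 libraries. Of 26 NF-kB and cytokine genes 21 lay above 0 (median 0.21), and Ccl3, Ccl4 and Ccl6 passed with the block. Of 23 granule and neutrophil genes 10 lay above 0 and 13 below (median -0.01, and -0.09 over the 12 libraries), and Mmp8 alone passed, with the block.

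Of 37 p53 target genes 25 lay above 0 (median 0.11, with 0.14 in WT, 0.02 in Het and 0.50 in FF), and 0 passed. Over the 12 libraries the median was 0.05. Phlda3, a p53-induced inhibitor of AKT, was at 4.09 and 4.21 CPM in WT ethanol A and B and 9.38 and 10.4 CPM in 4OHT. In Het it was at 1.63, 3.22 and 2.70 CPM in ethanol and 4.02, 3.41 and 3.88 CPM in 4OHT. The groups did not overlap, but the shared change of 0.86 ± 0.21 SE (log2) did not pass (edgeR adjusted p = 0.561). Psrc1, a spindle protein gene that p53 controls, was at 0.59 ± 0.13 SE (adjusted p = 0.309), against 1.22 in FF.

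None of 38 G2/M and mitosis genes passed (median -0.10, against -0.59 in FF) or of 40 S phase and replication genes (median 0.01, against -0.38 in FF). Medians in FF lay farther from 0 than in WT and Het for interferon-stimulated genes (0.60, against a shared 0.08) and for ATF4 and amino acid genes (-0.50, against 0.01). None of the 30 and 32 tested members of these lists passed in WT and Het. The other 11 lists, which include markers of mast, erythroid, megakaryocyte, lymphoid and stromal cells, MLL-AF9 targets and DNA repair genes, had medians from -0.09 to 0.06 and no member called. Over the 12 libraries their medians ranged from -0.11 to 0.33, the latter that of the stromal list. With the block, Scd1 passed in the LXR target list. Whether a list differs from other genes was not tested.

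**Figure D4:**
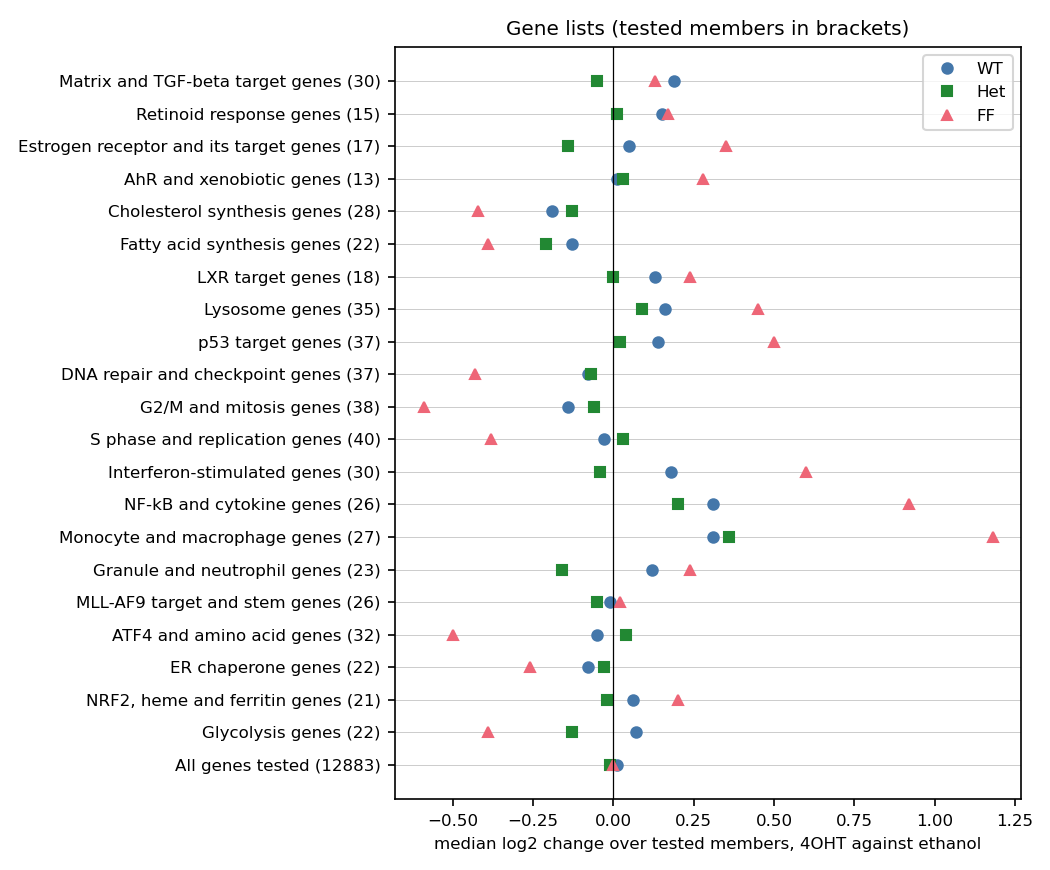
Median log2 change with 4OHT over the tested members of each list with at least 10 of them, in WT (A and B), Het and FF (without FF_EtOH C). The row of all genes lies at 0, the WT and Het medians lie within 0.4 of it, and the FF medians of the monocyte list (1.18) and the G2/M list (-0.59) lie at the ends.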

How the data were processed

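RNA abundance was measured by RNA sequencing of total RNA. The authors deposited raw read counts per gene symbol, 24062 symbols in 1 table. The submitters' processing notes name HISAT2 2.0.5, featureCounts 1.5.2 (Subread), FastQC 0.11.7, CASAVA 1.4 and mm10. Strand setting and annotation: not given in the sources. From the counts, edgeR 4.0.16 (R 4.3.3) was run with TMM, filterByExpr (minimum count 10), the robust quasi-likelihood F test and Benjamini-Hochberg adjustment at 0.05. Models were line plus treatment, line by treatment, and 1 mean per group for FF. CPM use TMM factors over all 18 libraries. Each SE is the size of the edgeR log2 change divided by the square root of its F statistic, an approximation that fails where counts are very few. Intervals and floors cover counting error only. Scripts were tested on simulated data. Alternatives were DESeq2 1.42.0, limma 3.58.1 voom, other scalings and filters, replicate blocks and left-out libraries.

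Named genes were Ddx41, Tgm2, Thbs1, up to 10 called rises and 10 falls reaching 5 CPM in 1 treatment group without overlap in either line, up to 3 called members per list, and up to 5 called line differences. The members, the 26 lists and the rule were chosen with earlier results of these data known. Het libraries of the same letter deviated together (correlations 0.51, 0.76 and 0.45), which does not show that letters are pairs. In WT over 12 libraries the values were 0.52, -0.07 and 0.30. Over 10 libraries WT A and B gave 0.30, a single value, since deviations in a group of 2 mirror each other. The value of 1 list gene is not reported here, while counts over lists include it.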

Additional observations from a re-analysis of the deposited data

Results flagged for a closer look

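The FF response to 4OHT differed from the mean of the WT and Het responses at 633 genes over all 18 libraries (edgeR contrast, adjusted p under 0.05). Ddx41 was among them, with an FF response lower than the shared one by -2.16 on the log2 scale (edgeR adjusted p = 5.5e-05). FF_4OHT is the group labelled -/- for Ddx41. The groups have 3 libraries each, too few for a test of single outlying libraries.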

How the results depend on the processing

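Over 12 libraries the count of 0 was the same under every alternative run except without WT_EtOH C and WT_4OHT C together, which gave 10. Leaving out either of these alone gave 0. Against the 10 genes called over 10 libraries, DESeq2 gave 55, no count filter 16, all groups in the fit 16, the replicate block within line 36, an adjusted p of 0.01 gave 5 and all 12 libraries 0, while single libraries left out gave 5 to 15. The additive replicate block gave 11 over 10 libraries and 0 over 12. The blocked count of 36, with pairs left out in fits added after seeing the data, was 9 (Het B), 10 (WT B), 15 (WT A), 19 (Het C) and 125 (Het A). For the difference between the lines, DESeq2 gave 2 over 12 libraries and 1 over 10, against 0. For the FF response minus the shared one, against 633, DESeq2 gave 1083 and left-out libraries 228 (FF_4OHT C) to 1055 (Het_4OHT A), with 385, 357 and 326 without FF_EtOH A, FF_4OHT A and FF_4OHT B. The causes were not tested. None of Ddx41 and the 10 genes changed sign under the alternatives over 10 libraries. Htra3, called with the block, was at 0.02 over 12 libraries against -1.28 with the block. Of 22 alternatives over 10 libraries, Nlrp3 lost its call in 11 and Peli2 in 10, while Thbs1, Myl10 and Mreg each lost it in 1, the fit to all 12 libraries. Genes with few counts, such as Gbp11 and Tgfb2 in WT, are limited by depth.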
